A study of Mus musculus with 7 samples.

Results

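The genes of matrix proteases, their inhibitors and the enzymes that process and crosslink collagen were examined in messenger RNA of the mouse left ventricle. The set was taken by gene symbol: the Mmp, Timp, Adam, Adamts and Adamtsl families, Lox with Loxl1 to Loxl4, Plod1 to Plod3, P4ha1 to P4ha3, Cpxm1, Cpxm2, Pcolce, Pcolce2 and Bmp1, with letter suffixes such as Adam1a counted in their family. Of 22027 genes in the count table, 100 belonged to the set, and the 60 with a mean of at least 1 CPM (a read count scaled to library size) over all libraries are described. The lowest of these was Adamts12, with a mean of 1.11 CPM, and the highest left out was Adamts20, with 0.671 CPM. All 60 passed the filter on low counts and none of the other 40 did. Of those 40, 17 were at 0 in every library, and 22 were Adam genes.

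The study compared 4 libraries labelled G3, from telomerase-deficient mice, with 3 labelled G3 PGC1aOE, from such mice that also overexpress PGC1alpha, a coactivator that raises transcription of genes for mitochondria and fatty acid oxidation. Both groups carry the telomerase deficiency, and all 7 samples carry the strain C57BL/6J and an age of 12 months. The labels state neither the telomerase gene that was deleted, nor the promoter or cell type that drives PGC1alpha, nor whether each library came from its own animal or litter. The p-values therefore measure only the spread between these samples. The sample codes, which are not explained, read G2 for G3 1, G3 3 and G3 PGC1aOE 1 and G3 for the others.

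The extracellular matrix of the heart is laid down mainly by fibroblasts as fibrillar collagens, elastin and fibrillin microfibrils. Inside the cell, prolyl and lysyl hydroxylases modify collagen chains. Outside it, procollagen proteinases remove the propeptides and lysyl oxidases crosslink the fibres. Matrix metalloproteinases (Mmp) and the Adamts proteases cut matrix proteins, Adam proteases release membrane proteins from the cell surface, and the Timp proteins inhibit many of these enzymes.

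What the proteases share in sequence is the zinc-binding site of the active centre, in which 3 histidines hold the zinc ion beside a catalytic glutamate. The pattern HEXXHXXGXXH, or its form with asparagine for the glycine, was found in the longest open reading frame of 62 of the 100 genes, and 5 of those carried only the asparagine form. It was found in 20 of 33 Adam genes. Adam11, Adam22 and Adam23, the described Adam genes without it, encode cell surface proteins known as ligands or receptors rather than proteases. Adamts8, counted below among the described Adamts proteases, had no match to either form in its longest open reading frame. To show how alike the site is across families, the coding strand of 8 genes is given from the GENCODE M21 transcripts, 5′ to 3′, with the codons of the 3 histidines and the glutamate in capitals:
Mmp2: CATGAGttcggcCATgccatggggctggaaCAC
Mmp14: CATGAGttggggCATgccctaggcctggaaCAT
Mmp12: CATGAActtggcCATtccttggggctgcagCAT
Adam10: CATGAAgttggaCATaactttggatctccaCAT
Adam17: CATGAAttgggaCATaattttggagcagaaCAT
Adamts10: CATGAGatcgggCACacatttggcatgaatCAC
Adamts1: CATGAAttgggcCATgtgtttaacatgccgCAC
Bmp1: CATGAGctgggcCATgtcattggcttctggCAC

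Total counts were between 10106705 and 16056740 per library, and the set took between 0.126% and 0.194% of them. Mitochondrially encoded genes took 24.7% to 42.4%. Summed levels of 8 ventricular cardiomyocyte markers were between 50759 and 71692 CPM, while 4 atrial markers summed to between 72.3 and 3923 CPM. Ppargc1a, the gene of PGC1alpha, was at 94.7, 56.8, 118 and 86.7 CPM in G3 1 to 4 and at 103, 43.9 and 58.1 CPM in G3 PGC1aOE 1 to 3, so its message was not higher in the libraries labelled as overexpressing it (log2 fold change -0.38, SE 0.34, edgeR adjusted p = 0.847). All directions below are therefore those of the libraries labelled G3 PGC1aOE against those labelled G3. Library G3 PGC1aOE 2 stood apart in base composition: across 12648 genes, the Spearman correlation of its deviation with GC content was 0.46, against -0.29 to 0.20 in the other 6 libraries. The same correlation with log2 gene length was 0.38, -0.36 and -0.34 in G3 PGC1aOE 1 to 3, against -0.0069 to 0.25 in G3.

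Levels between genes are compared in FPKM, which divides by gene length. The highest mean levels over all libraries were those of the inhibitor Timp3 at 62.9 FPKM, of Pcolce at 57.5, of Timp2 at 52.6, of Adamtsl5 at 41.0, of Plod1 at 40.9, of Adam15 at 39.6, of P4ha2 at 36.4 and of Adamtsl4 at 32.98. These 8 genes held 49.5% of the summed mean FPKM of all 100 genes of the set. Among the 8 are 2 inhibitors, an enhancer of procollagen processing, 2 collagen hydroxylases and 2 Adamtsl genes, whose products resemble Adamts proteins but lack the protease domain. Adam15 was the highest gene with a zinc motif. In CPM, 37 of the 60 genes had a mean of at least 10 and 18 had a mean under 5.

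**Figure D1:**
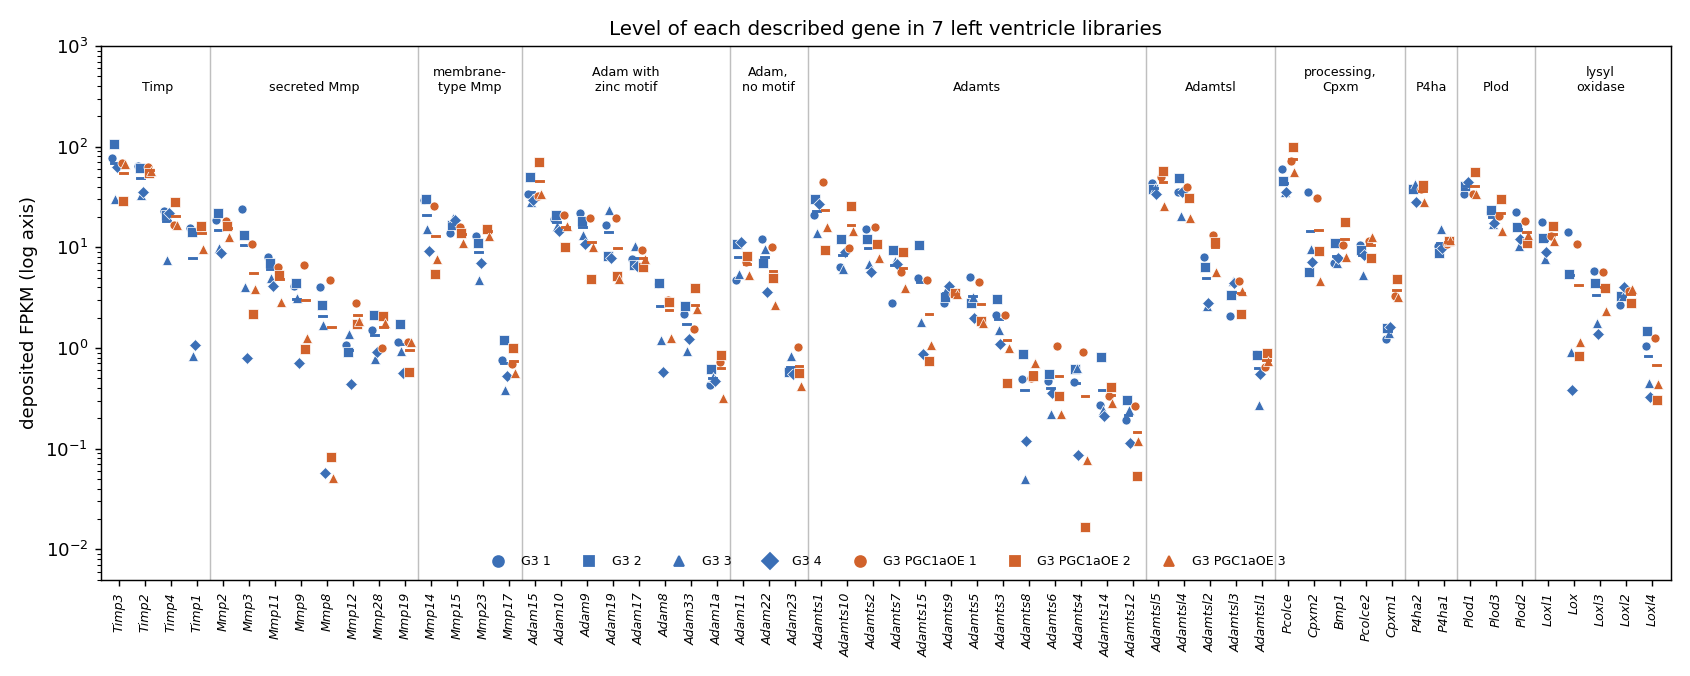
Deposited FPKM (log axis) of the 60 described genes, ordered by role and by mean level, with a point for each of 4 G3 and 3 G3 PGC1aOE libraries and a short line at each group mean. Timp3, Pcolce and Timp2 were the highest, and in Mmp8, Timp1, Lox and Adamts4 the points of 1 group lay far apart.

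No gene of the set differed between the labels at an adjusted p under 0.05 in edgeR's quasi-likelihood test, and neither did any of the 12674 genes tested (0%). DESeq2 called 3 of the genes tested and limma voom 0, with none from the set. In bulk tissue, fewer cells of a type and less RNA per cell cannot be told apart. At an unadjusted p under 0.05, 7 of the 60 genes (11.7%) were higher in G3 PGC1aOE and 0 were lower, against 3.05% higher and 1.27% lower of all genes tested (4.32% in either direction). The 7 were Cpxm1, Pcolce, Mmp12, Adamts10, Adamtsl2, Mmp23 and Bmp1. The log2 fold change was above 0 in 37 of the 60 genes (61.7%), against 50.9% of all genes tested, and its median was 0.09, against 0.0076. The CPM of the 2 groups did not overlap in 4 genes (6.67%), Cpxm1, Pcolce, Mmp12 and Mmp23, all higher, and in no gene was it lower without overlap. Over all genes tested, 2.19% were higher and 2.39% lower without overlap (4.58% together).

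**Figure D2:**
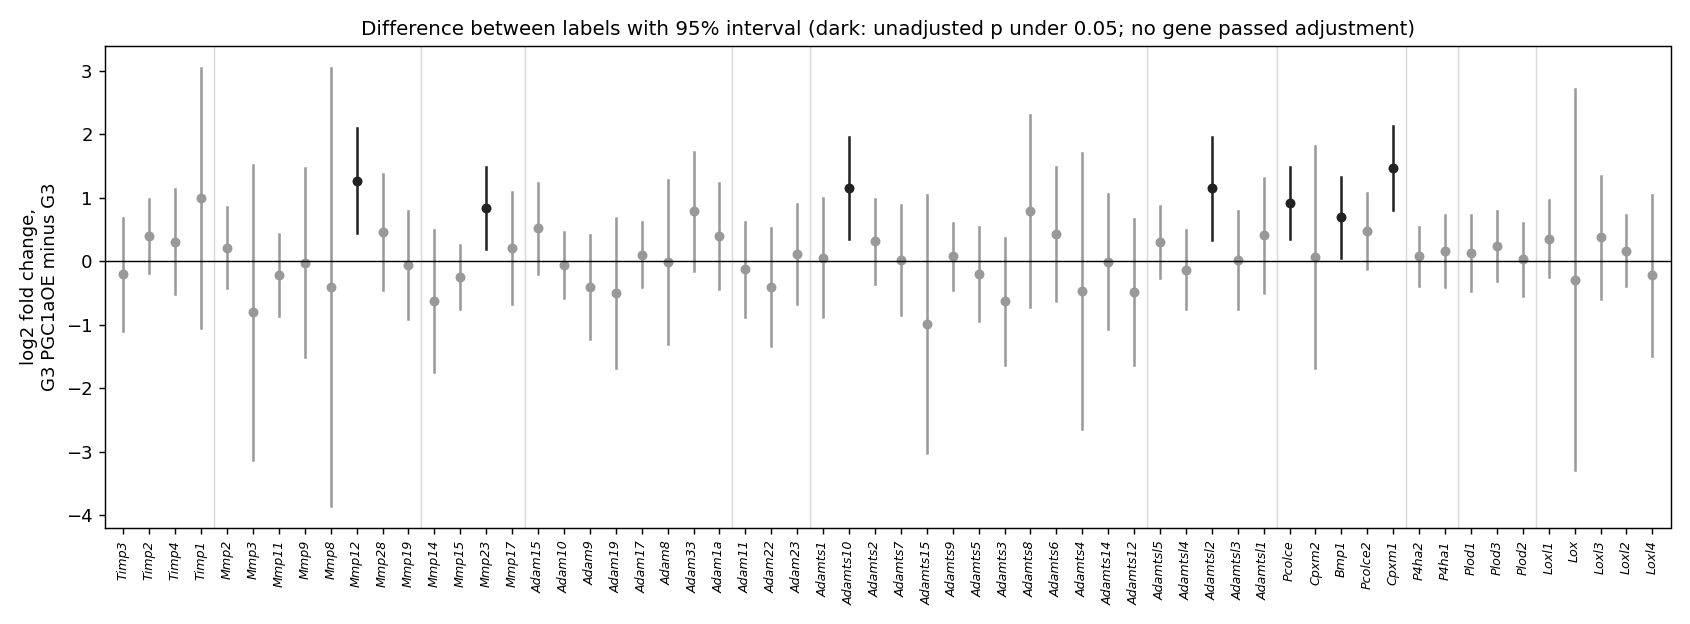
Log2 fold change of G3 PGC1aOE minus G3 for the 60 genes in the same order, with 95% intervals from the fitted standard error. The 7 dark genes had an unadjusted p under 0.05 and all lay above 0, and the intervals of Mmp8, Lox, Mmp3, Adamts4, Timp1 and Adamts15 each spanned more than 4 log2 units.

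The genes of procollagen processing and the Cpxm genes held 3 of these 7. All 5 genes of this role had log2 fold changes above 0, from 0.08 (SE 0.75) for Cpxm2 to 1.48 for Cpxm1, with a median of 0.69. Pcolce (ENSMUSG00000029718) encodes a glycoprotein that binds the C-propeptide of procollagens and speeds its removal. Its level was 54.9, 40.1, 35.9 and 37.5 CPM in G3 1 to 4 and 64.1, 108 and 66.4 CPM in G3 PGC1aOE 1 to 3. Every library labelled G3 PGC1aOE was above every G3 library, with a log2 fold change of 0.92 (SE 0.26, unadjusted p = 0.00457, adjusted p = 0.847, edgeR). Without G3 PGC1aOE 2 the value was 0.63. Bmp1 (ENSMUSG00000022098), the proteinase that removes this propeptide and also activates lysyl oxidase, was at 23.99, 36.4, 26.4 and 31.1 CPM in G3 and at 35.8, 71.9 and 35.3 CPM in G3 PGC1aOE. G3 PGC1aOE 2 was far above the rest, while the other 2 libraries of its group lay just under the highest G3 library. The log2 fold change of Bmp1 was 0.69 (SE 0.29, unadjusted p = 0.0346, edgeR), and it was 0.27 (edgeR unadjusted p = 0.244) without G3 PGC1aOE 2, so 1 library set its size. Pcolce2, a second enhancer, was at 24.4, 21.2, 13.5 and 22.3 CPM in G3 and at 26.2, 21.3 and 37.6 CPM in G3 PGC1aOE. Its groups overlapped (log2 fold change 0.48, SE 0.27), and the value without G3 PGC1aOE 3 was 0.22.

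Cpxm1 (ENSMUSG00000027408), a secreted member of the carboxypeptidase family that lacks carboxypeptidase activity, had the smallest p of the set. It was at 1.73, 2.14, 2.15 and 2.63 CPM in G3 and at 4.503, 7.94 and 5.74 CPM in G3 PGC1aOE, from 19 to 35 reads in G3 libraries and 58 to 109 in the others. The groups did not overlap, the log2 fold change was 1.48 (95% interval 0.82 to 2.14, unadjusted p = 0.000498, adjusted p = 0.847, edgeR), and with each library left out in turn it stayed between 1.24 and 1.65. Cpxm2, its relative, showed no such separation. It was at 55.1, 8.50, 16.4 and 12.9 CPM in G3 and at 47.3, 16.8 and 9.20 CPM in G3 PGC1aOE, with 1 high library in each group. The log2 fold change of Cpxm2 was 0.08 (SE 0.75), and with each library left out in turn it ran from -0.84 to 0.96.

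Among the secreted metalloproteinases 8 of 16 genes were described, 3 of them with log2 fold changes above 0 and 5 below. Mmp12 (ENSMUSG00000049723), the macrophage elastase, was at 1.92, 1.55, 2.69 and 0.902 CPM in G3 and at 4.89, 3.64 and 4.196 CPM in G3 PGC1aOE, from 12 to 63 reads per library. The groups did not overlap (log2 fold change 1.27, SE 0.37, unadjusted p = 0.00634, edgeR). Summed levels of 8 macrophage and monocyte markers, none at 0 in all libraries, were 178 to 445 CPM in G3 and 323 to 374 CPM in G3 PGC1aOE, with 7 of 8 log2 fold changes above 0. Their part in the difference of Mmp12 was not tested. Mmp2, gelatinase A and the highest secreted Mmp per length, was at 52.7, 59.0, 29.9 and 28.0 CPM in G3 and at 49.4, 53.4 and 45.2 CPM in G3 PGC1aOE. Mmp2 was lower in G3 3 and G3 4 than in the other 5 libraries (log2 fold change 0.22, SE 0.29).

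The membrane-bound metalloproteinases gave values in both directions. Mmp23 (ENSMUSG00000029061), which is anchored in the membrane by its N-terminal part, was at 10.9, 9.02, 4.395 and 6.76 CPM in G3 and at 12.6, 15.1 and 14.1 CPM in G3 PGC1aOE. All 3 of the latter exceeded all 4 of the former (log2 fold change 0.84, SE 0.29, unadjusted p = 0.0147, edgeR). Mmp14, the activator of pro-Mmp2, was at 32.3, 31.6, 18.03 and 11.6 CPM in G3 and at 27.6, 6.99 and 10.7 CPM in G3 PGC1aOE. Its high libraries were G3 1, G3 2 and G3 PGC1aOE 1, and the log2 fold change was -0.63 (SE 0.50). Mmp15, another membrane-type enzyme, was at 55.7, 63.7, 85.0 and 86.1 CPM in G3 and at 61.6, 65.9 and 56.4 CPM in G3 PGC1aOE, and it was highest in G3 3 and G3 4, the G3 libraries in which Mmp14 was lowest. As a share of the summed FPKM of both, Mmp14 was 68.0%, 64.5%, 43.8% and 33.04% in G3 and 62.2%, 28.0% and 41.2% in G3 PGC1aOE.

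Of the Adamts proteases, 13 of 19 were described, and 7 had log2 fold changes above 0 and 6 below, with a median of 0.02. Adamts10 (ENSMUSG00000024299), which binds fibrillin and is mutated in the human Weill-Marchesani syndrome, was at 18.3, 33.5, 19.1 and 29.2 CPM in G3 and at 27.5, 85.8 and 53.4 CPM in G3 PGC1aOE. The groups overlapped through G3 PGC1aOE 1, and G3 PGC1aOE 2 was the highest. Its log2 fold change was 1.15 (SE 0.36, unadjusted p = 0.00953, edgeR), and 0.69 without G3 PGC1aOE 2. Adamts1, a protease of versican and the highest Adamts per length, was at 51.4, 71.1, 37.0 and 75.6 CPM in G3 and at 107, 27.1 and 49.5 CPM in G3 PGC1aOE. Both extremes of Adamts1 lay within G3 PGC1aOE, and its log2 fold change of 0.06 (SE 0.42) was below 0 in limma, both on counts (voom, -0.19) and on log2 FPKM. The N-propeptide proteinases Adamts2, Adamts3 and Adamts14 had log2 fold changes of 0.31 (SE 0.30), -0.63 (SE 0.45) and -0.0057 (SE 0.48), and the 95% interval of each included 0.

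The Adamtsl genes, which have no zinc motif, were all described, and 4 of 5 had log2 fold changes above 0. Adamtsl2 (ENSMUSG00000036040), which binds fibrillin and latent TGF-beta binding protein and is mutated in human geleophysic dysplasia, was at 16.7, 12.9, 6.01 and 6.76 CPM in G3 and at 26.9, 28.1 and 15.5 CPM in G3 PGC1aOE. Only G3 1 and G3 PGC1aOE 3 crossed between the groups of Adamtsl2 (log2 fold change 1.15, SE 0.37, unadjusted p = 0.0101, edgeR). Adamtsl5 was at 78.5, 66.9, 77.5 and 70.8 CPM in G3 and at 89.0, 123 and 59.9 CPM in G3 PGC1aOE. Adamtsl4 was at 58.5, 78.9, 37.6 and 68.3 CPM in G3 and at 64.7, 60.2 and 42.1 CPM in G3 PGC1aOE. The log2 fold changes of these abundant members were 0.30 (SE 0.26) and -0.13 (SE 0.28).

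The 7 genes were compared within the numbers of the sample codes, which the labels do not explain: numbers under 80 cover 3 G3 libraries and 1 G3 PGC1aOE library, numbers of 80 and above 1 and 2. These values are a description, since the genes were chosen for being higher and each range has a group of 1 library. The difference in mean log2 CPM was 1.11 and 1.31 for Cpxm1, 0.58 and 1.17 for Pcolce, 1.22 and 1.94 for Mmp12, and 0.27 and 1.21 for Adamts10. For Adamtsl2 it was 1.29 and 1.602, for Mmp23 0.72 and 1.09, and for Bmp1 0.33 and 0.69. The 7 genes had a median GC content of 56.0%, against 53.4% for the 60 and 49.9% for all genes tested. G3 PGC1aOE 2, the library that stood apart in GC content, was the highest library in 6 of the 7, all but Mmp12, and in 26.2% of all genes tested. The 7 were chosen for being higher in G3 PGC1aOE, which favours the libraries of that group as the highest. With each library's trend on GC content removed, the same 7 genes had an unadjusted p under 0.05 and were higher, and 6 of them, all but Bmp1, when G3 PGC1aOE 2 was also left out. This is a description too, since the genes were chosen by this p in the same libraries. The part of base composition or of gene length in their differences was not tested. Of 8 fibroblast markers, 7 had log2 fold changes above 0, with a median of 0.87, and none passed adjustment or was at 0 in all libraries. Their sums were 535 to 1059 CPM in G3 and 888 to 1571 CPM in G3 PGC1aOE, with overlap. Activated fibroblast markers had 6 of 6 tested above 0, with a median of 0.59. None of them passed adjustment, and their sums overlapped between the groups. Schwann cell markers, 5 of 5 above 0 with a median of 1.13, summed to 10.05 to 14.3 CPM in G3 and to 18.2 to 24.1 CPM in G3 PGC1aOE, without overlap. Adipocyte markers, 5 of 5 above 0 with a median of 1.62, summed to 1.35 to 32.7 CPM in G3 and to 8.23 to 50.4 CPM in G3 PGC1aOE. Valve and cartilage markers summed to 4.48 to 42.8 CPM in G3 and to 7.45, 74.5 and 126 CPM in G3 PGC1aOE 1 to 3. Other lists also had most log2 fold changes above 0. Endothelial and smooth muscle and pericyte markers each had 5 of 6, epicardial markers 3 of 3 tested and atrial markers 4 of 4. None of these genes passed adjustment, and the sums of each list overlapped between the groups. Of 8 ventricular cardiomyocyte markers, 3 were above 0 and 5 below, among the latter Atp2a2 without overlap (log2 fold change -0.84, SE 0.33). Of 5 erythroid markers, 4 were below 0. Whether these cell types account for the differences in the 7 genes was not tested.

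**Figure D3:**
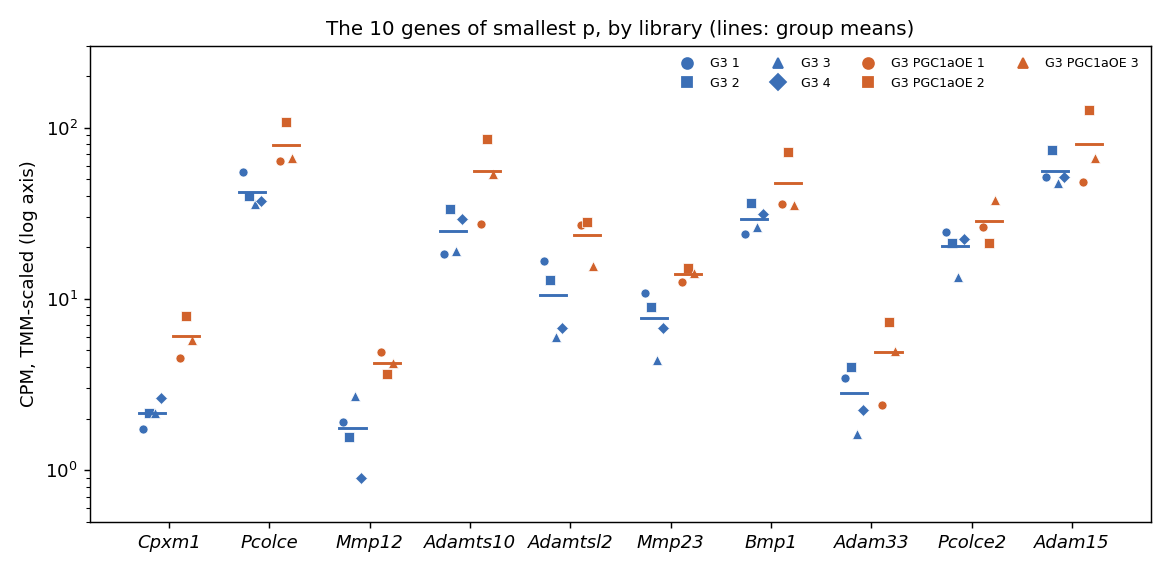
CPM with TMM-scaled totals (log axis) of the 10 genes of smallest p, with a point for each library and a line at each group mean. Cpxm1, Pcolce, Mmp12 and Mmp23 had no overlap between groups. The square of G3 PGC1aOE 2 was the highest point in 8 of the 10 genes, all but Mmp12 and Pcolce2, against 26.2% of all genes tested.

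The Adam proteases were split, with 4 of 8 described zinc-motif genes above 0 and 4 below. Adam15, a membrane protein with an integrin-binding motif in its disintegrin domain, was at 51.6, 74.0, 47.4 and 51.8 CPM in G3 and at 48.2, 127 and 66.9 CPM in G3 PGC1aOE. The high library decided its value, since the log2 fold change of 0.52 (SE 0.32) was 0.035 without G3 PGC1aOE 2. Adam33 was at 3.47, 3.99, 1.61 and 2.25 CPM in G3 and at 2.41, 7.35 and 4.93 CPM in G3 PGC1aOE (log2 fold change 0.79, SE 0.43, and 0.37 without G3 PGC1aOE 2). The sheddase Adam10 was among the steadier genes, at 38.9, 40.8, 36.0 and 34.0 CPM in G3 and at 41.1, 23.95 and 42.6 CPM in G3 PGC1aOE, with G3 PGC1aOE 2 alone lower. Adam17, the sheddase of TNF and of EGF receptor ligands, had a log2 fold change of 0.11 (SE 0.23). The fold changes of Adam10 and Adam17 had 95% intervals of -0.58 to 0.46 and -0.41 to 0.62, so a difference of 1 log2 unit lay outside both. Of the Adam genes without the motif, Adam11 was at 6.93, 15, 8.52 and 18.7 CPM in G3 and at 10.01, 13.9 and 9.94 CPM in G3 PGC1aOE. Adam22 was at 29.9, 16.7, 26.3 and 10.2 CPM in G3 and at 24.2, 14.3 and 8.47 CPM in G3 PGC1aOE. For both, the G3 libraries alone covered nearly the whole range.

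Among 4 inhibitors, 3 had log2 fold changes above 0. Timp2, which takes part in the activation of pro-Mmp2, was at 132, 121, 73.0 and 82.3 CPM in G3 and at 125, 131 and 148 CPM in G3 PGC1aOE (log2 fold change 0.40, SE 0.26). As with Mmp2, G3 3 and G3 4 were lower than the other 5 libraries. Timp3, which is bound to the matrix and inhibits Adam and Adamts proteases too, was at 163, 216, 69.5 and 151 CPM in G3 and at 141, 70.5 and 179 CPM in G3 PGC1aOE (-0.20, SE 0.40). Timp4, which is known for its high expression in the heart, had a log2 fold change of 0.31 (SE 0.37). The summed FPKM of the 4 Timp genes was 180.3, 203, 71.4 and 120.3 in G3 and 164, 127 and 149 in G3 PGC1aOE, with means of 144 ± 59.7 (SD, n = 4) and 147 ± 18.5 (SD, n = 3). The summed FPKM of all 23 Mmp genes was 120.4, 114, 66.98 and 52.2 in G3 and 110.1, 65.0 and 58.2 in G3 PGC1aOE. The ratio of the Timp sum to the Mmp sum was therefore 1.498, 1.79, 1.07 and 2.30 in G3 and 1.49, 1.96 and 2.56 in G3 PGC1aOE, and the groups overlapped over most of their range. Unlike the CPM values, the FPKM sums were not TMM-scaled. They divide by total counts of which mitochondrially encoded genes took 24.7% to 42.4%. The ratio within a library does not depend on that scaling.

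The collagen hydroxylases were steady by comparison. Plod1, which hydroxylates lysines of the collagen helix, was at 52.3, 61.0, 75.3 and 78.5 CPM in G3 and at 51.0, 101 and 67.1 CPM in G3 PGC1aOE. Plod3, which also adds sugars to hydroxylysine, was at 37.1, 38.0, 30.8 and 33.3 CPM in G3 and at 33.5, 59.0 and 31.2 CPM in G3 PGC1aOE. In both genes G3 PGC1aOE 2 was the highest library, and without it the log2 fold changes of 0.13 (SE 0.27) and 0.24 (SE 0.25) turned to -0.18 and -0.11. Plod2, the hydroxylase of the collagen telopeptides, had a log2 fold change of 0.03 (SE 0.26). P4ha2, a catalytic subunit of prolyl 4-hydroxylase, was at 41.7, 39.2, 50.1 and 35.1 CPM in G3 and at 39.7, 52.6 and 39.4 CPM in G3 PGC1aOE. P4ha1, the other described catalytic subunit, was at 29.8, 24.1, 47.4 and 32.2 CPM in G3 and at 30.4, 38.6 and 43.4 CPM in G3 PGC1aOE. The 95% intervals of these 2 subunits were -0.39 to 0.55 and -0.40 to 0.73.

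The lysyl oxidases, which start the crosslinks of collagen and elastin, held both steady and very variable members. Loxl1, an oxidase of elastic fibres, was at 54.4, 36.9, 25.4 and 32.1 CPM in G3 and at 39.2, 58.4 and 45.6 CPM in G3 PGC1aOE (log2 fold change 0.36, SE 0.27). Lox itself was at 53.2, 19.5, 3.68 and 1.65 CPM in G3 and at 38.7, 3.64 and 5.52 CPM in G3 PGC1aOE, a 32.2-fold span. Its high libraries were G3 1, G3 2 and G3 PGC1aOE 1, and its log2 fold change of -0.29 (SE 1.27) was smaller than its error. Lox as a share of the summed FPKM of Lox and Loxl1 was 44.7%, 30.4%, 10.7% and 4.09% in G3 and 45.0%, 4.90% and 9.11% in G3 PGC1aOE. Loxl1 thus exceeded Lox per length in all 7 libraries, by little in 2 of them and by far in the others.

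**Figure D4:**
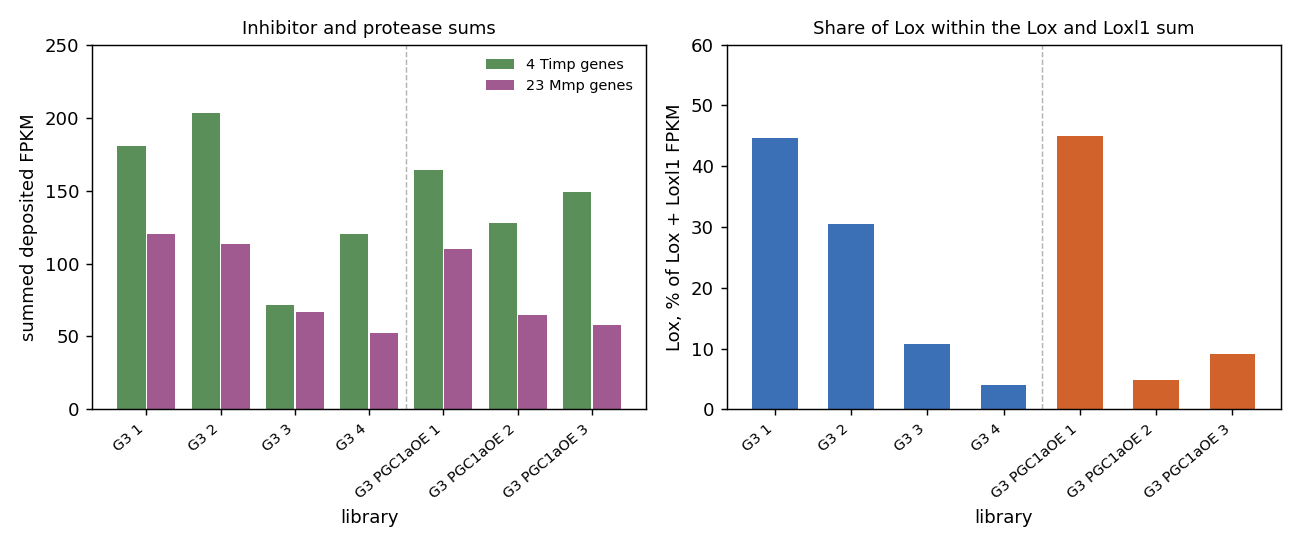
Left, summed deposited FPKM of the 4 Timp and 23 Mmp genes in each library, and right, Lox as a percentage of the summed FPKM of Lox and Loxl1. The Timp sum exceeded the Mmp sum in each of the 7 libraries, and the share of Lox was 30.4% to 45.0% in G3 1, G3 2 and G3 PGC1aOE 1 and at most 10.7% in the other 4.

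Lox was 1 of a number of genes in this set that varied more within a group than between groups. The within-group SD of log2 CPM was above 1 in 10 of the 60 genes (16.7%), against 3.24% of 12331 tested genes with a mean of at least 1 CPM, and its median was 0.54 against 0.36. The 2 sets were not matched for level. This SD includes counting noise, which weighs more in low genes such as Adamts4 and Adamts8, at means of 1.53 and 1.68 CPM. The 8 of widest spread, named after their values were seen, were Mmp8, Lox, Mmp3, Timp1, Adamts4, Adamts15, Cpxm2 and Mmp9. Mmp8, the neutrophil collagenase, was at 9.03, 5.76, 4.13 and 0.15 CPM in G3 and at 10.5, 0.22 and 0.15 CPM in G3 PGC1aOE. The low libraries held only 2, 3 and 2 reads. Mmp3, stromelysin 1, was at 39.4, 21.0, 7.36 and 1.503 CPM in G3 and at 17.4, 4.22 and 8.10 CPM in G3 PGC1aOE (log2 fold change -0.80, SE 0.98). Adamts15, another protease of versican and aggrecan, was at 27.3, 54.98, 10.8 and 5.49 CPM in G3 and at 24.997, 4.81 and 7.51 CPM in G3 PGC1aOE. In Lox, Mmp3, Mmp8, Mmp9 and Adamts15 the 3 highest libraries were G3 1, G3 2 and G3 PGC1aOE 1. Timp1 differed from this pattern, at 12.2, 10.8, 0.718 and 0.977 CPM in G3 and at 12.3, 15.1 and 9.64 CPM in G3 PGC1aOE, so that G3 3 and G3 4 alone were low. G3 1, G3 2 and G3 PGC1aOE 1 all have code numbers under 80, as G3 3 does. The part of the codes in the spread was not tested.

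The same 3 libraries were the highest in Myh7, the slow myosin heavy chain, at 6071, 4906, 293 and 1206 CPM in G3 and at 8072, 395 and 265 CPM in G3 PGC1aOE. Nppa, the atrial natriuretic peptide, was at 2400.0, 2477, 70.4 and 599 CPM in G3 and at 3921, 448 and 1246 CPM in G3 PGC1aOE. For Mmp8, the neutrophil and mast cell markers stood beside it, with sums of 101, 55.9, 74.3 and 9.77 CPM in G3 and of 177, 9.32 and 19.95 CPM in G3 PGC1aOE. Activated fibroblast markers summed to 282, 151, 28.5 and 33.1 CPM in G3 and to 296, 142 and 146 CPM in G3 PGC1aOE. The part of these cells and of the muscle state in the spread of the genes was not tested. By library, G3 3 was the lowest of the 7 in 19 of the 60 genes (31.7%, against 16% of all genes tested), and G3 PGC1aOE 1 was the lowest in 1 (1.67%, against 11.1%).

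**Figure D5:**
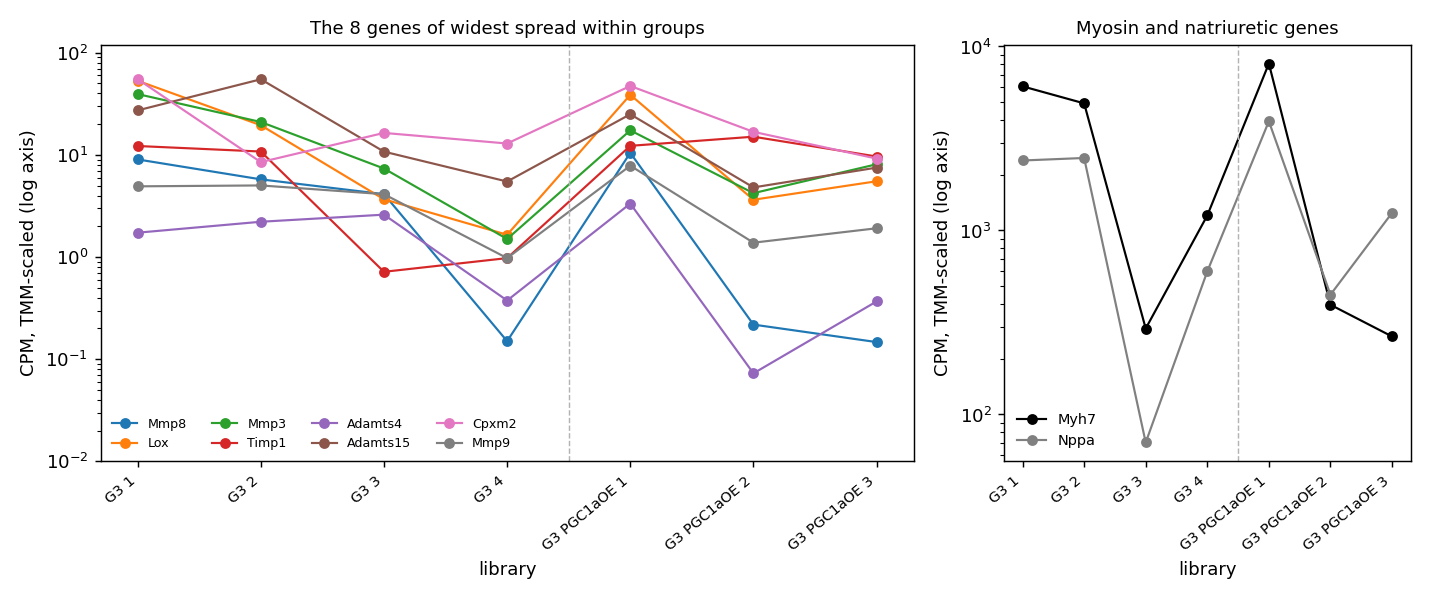
CPM (log axis) by library of the 8 genes of widest within-group spread, left, and of Myh7 and Nppa, right, where lines join the values of 1 gene and the dashed line parts the groups. Lox, Mmp3, Mmp8, Mmp9 and Adamts15 were highest in G3 1, G3 2 and G3 PGC1aOE 1, as Myh7 was.

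Mmp3, Mmp8 and Mmp12 lie in 1 cluster of metalloproteinase genes on mouse chromosome 9, yet only Mmp3 and Mmp8 shared their high libraries, and the promoters are therefore shown side by side. Each line gives the 250 bases before a RefSeq start in GRCm38.p6, on the plus strand, at chr9:7347124-7347373 for Mmp12, chr9:7445572-7445821 for Mmp3 and chr9:7558179-7558428 for Mmp8. Capitals mark matches to TGANTCA, the AP-1 pattern, which reads the same on both strands, and to TATAAA, searched on both strands:
Mmp12: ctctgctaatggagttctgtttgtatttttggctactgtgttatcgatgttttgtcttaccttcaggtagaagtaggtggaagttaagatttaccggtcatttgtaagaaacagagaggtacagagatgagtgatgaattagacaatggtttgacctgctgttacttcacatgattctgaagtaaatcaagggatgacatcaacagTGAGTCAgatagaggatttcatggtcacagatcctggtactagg
Mmp3: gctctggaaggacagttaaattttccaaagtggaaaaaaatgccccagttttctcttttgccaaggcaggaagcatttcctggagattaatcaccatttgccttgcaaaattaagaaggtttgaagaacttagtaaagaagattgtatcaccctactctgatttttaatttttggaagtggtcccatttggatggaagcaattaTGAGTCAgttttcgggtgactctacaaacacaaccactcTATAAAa
Mmp8: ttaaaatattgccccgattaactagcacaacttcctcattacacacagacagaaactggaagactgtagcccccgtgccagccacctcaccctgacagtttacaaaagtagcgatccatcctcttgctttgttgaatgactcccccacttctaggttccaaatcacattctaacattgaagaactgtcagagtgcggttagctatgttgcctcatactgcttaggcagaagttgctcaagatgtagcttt

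The AP-1 pattern stood 44 bases before the start of Mmp12 and 46 before that of Mmp3, and TATAAA 7 bases before the start of Mmp3. The window of Mmp8 held neither. Another RefSeq start of Mmp12, with a window upstream of the one shown, held neither pattern. Over all 32851 promoter windows of this length, TGANTCA was found in 6.75% and TATAAA in 12.37%. Of the 63 genes of the set with a promoter in the table, 12 held TGANTCA, of which Mmp3, Mmp12 and Adam19 were among those described, and 14 held TATAAA. A gene was counted if any of its windows held the pattern, while the shares over all promoters are per window. The gene counts and these shares are therefore not in the same unit.

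The substrates of these enzymes were set beside them. Of 21 tested genes of collagens, elastic fibre and microfibril proteins, fibronectin and proteoglycans, 19 had log2 fold changes above 0, against 50.9% of all genes tested, with a median of 0.55. None passed adjustment in edgeR, and 6 had an unadjusted p under 0.05, all higher, against 3.05% of all genes tested. Col3a1, of type III collagen, was at 62.7, 41.7, 68.4 and 69.4 CPM in G3 and at 134, 161 and 147 CPM in G3 PGC1aOE, without overlap (log2 fold change 1.28, SE 0.24). Col1a1 and Col6a1 had log2 fold changes of 0.87 (SE 0.24) and 0.80 (SE 0.23), also without overlap. Of 15 tested genes of proteins that fold collagen or complete it, 8 were above 0, with a median of 0.07. P3h3, a prolyl 3-hydroxylase, had a log2 fold change of 0.71 (SE 0.31), Tmem38b, an ion channel of the endoplasmic reticulum, -0.68 (SE 0.37), and the prolyl isomerase Ppib 0.40 (SE 0.22).

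Of 19 other proteases and inhibitors of the matrix, 14 had log2 fold changes above 0, with a median of 0.32. Furin, the convertase that removes the prodomains of many Adam, Adamts and membrane-type Mmp proteins and of Bmp1, went the other way from Bmp1. It was at 93.5, 159.8, 96.6 and 100.2 CPM in G3 and at 72.4, 64.1 and 67.7 CPM in G3 PGC1aOE, without overlap (log2 fold change -0.73, SE 0.25, unadjusted p = 0.0152, edgeR). A2m, the broad protease inhibitor alpha-2-macroglobulin, had a log2 fold change of 1.32 (SE 0.54), with G3 PGC1aOE 2 at 0.582 CPM below every G3 library. Cst3, cystatin C, had one of 0.59 (SE 0.31). Of 15 partners and shed substrates of Adam10 and Adam17, 12 were above 0, with a median of 0.19. Tspan5, a tetraspanin that guides Adam10 to the cell surface, had a log2 fold change of 0.69 (SE 0.28) without overlap, while the Notch ligand Dll1 and the growth factor Tgfa had 0.81 (SE 0.56) and 0.57 (SE 0.48). None of these 4 lists held a gene that passed adjustment.

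Reads were counted from a kit that does not mark strand, and 14 of the 60 genes share exon bases with another gene in the GENCODE M21 annotation, 6 of them over more than 10% of their own. Adam1a shares 63.7% with a gene on its own strand, and Timp3 21.3% with Syn3, which was at a mean of 0.514 CPM. Mmp11 shares 5.6% with Chchd10, which was at a mean of 611 CPM, so the low level of Mmp11 is uncertain. Plod3 shares 11.7% with Znhit1 on the opposite strand, which was at a mean of 41.6 CPM. Znhit1 too was highest in G3 PGC1aOE 2, at 1126 reads against 254 to 662 in the other libraries. Its part in the level of Plod3 was not tested. Pcolce shares 2.9% with Fbxo24, at a mean of 0.474 CPM, and Mmp12 2.2% with Mmp1b, which was at 0.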

How the data were processed

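RNA of 7 left ventricle samples was taken with Trizol and sequenced after an Illumina TruSeq RNA kit, per the labels' protocols. The authors deposited raw read counts per Ensembl gene, and FPKM, which equalled those counts over their column sum and a single length for each gene. CASAVA and Bowtie 0.12.2 were used with mm9, per the submitters' processing notes. The program that counted reads and its annotation: not given in the sources used here. Symbols matched 21748 of 22027 identifiers.

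Counts were scaled by TMM, filtered with filterByExpr (12674 genes kept) and tested with edgeR 4.0.16 in R 4.3.3 (robust quasi-likelihood F-test, 2-sided, group as the only term, Benjamini-Hochberg adjustment over all tested genes at 0.05). CPM used TMM-scaled totals, and intervals are at 95%. The scripts were tested on simulated counts. Values in every library are given for the 10 genes of smallest p, the 2 highest per length in each role, and the 8 of widest spread, the last chosen after their values were seen. From each pathway list the 3 genes of smallest p are named. The genes and lists were chosen with earlier results of these data known. Alternatives were other scalings and filters, DESeq2 1.42.0, limma 3.58.1 on counts (voom) and on log2(FPKM + 1) or log2(FPKM + 0.1), covariates from the sample code, a replicate block, each library left out, and, chosen after seeing the data, removal of GC or length trends. Promoters are from RefSeq GRCm38.p6, and coding stretches from GENCODE M21.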

Additional observations from a re-analysis of the deposited data

Results flagged for a closer look

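In 3 of the 60 genes, 1 of the 4 G3 libraries lay so far from the other 3 that the gap exceeded Dixon's 95% critical value for its share of the range. Chance alone flags about 1 in 20 groups. Adam15 was at 74.0 CPM in G3 2, Adamts14, an N-propeptide proteinase, at 3.18 CPM in G3 2, and Cpxm2 at 55.1 CPM in G3 1. The other G3 libraries were at 47.4 to 51.8 CPM for Adam15, at 0.977 to 1.09 CPM for Adamts14 and at 8.50 to 16.4 CPM for Cpxm2. Cpxm2 was also high, at 47.3 CPM, in G3 PGC1aOE 1.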

How the results depend on the processing

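No gene of the set passed adjustment under any alternative. Over all genes tested, DESeq2 called 3 genes and the replicate block called 6, against 0 in edgeR, voom and the other alternatives. Same-numbered libraries correlated by 0.46, 0.12 and -0.09 in their deviations from the group means, so the numbers are not taken to pair the samples (with the block, 7 genes of the set were higher and 3 lower at an unadjusted p under 0.05, and 1161 of all genes tested passed that p), and not every library correlated best with its own number. With each library left out, the number of genes above 0 was 32 to 42 of 60, the median log2 fold change 0.10 to 0.20 and the number without overlap 4 to 12. The 12 came without G3 PGC1aOE 1, when 9 genes were higher and 6 lower at an unadjusted p under 0.05, 2464 of all genes tested passed that p and none passed adjustment. With length trends removed, 2 genes had no overlap. The share of all genes tested without overlap is not given for these settings, and groups of fewer libraries separate more easily. These counts are therefore not comparable with the 4.58% of all genes tested in the full set of libraries. Cpxm1, Pcolce, Mmp12, Adamtsl2 and Mmp23 kept their sign and an unadjusted p under 0.05 in all 22 settings, with log2 fold changes as low as 0.94, 0.63, 0.69, 0.94 and 0.63. The lowest for Cpxm1 and Mmp12 came with log2(FPKM + 1), a pseudocount that understates changes of low genes. The highest p of Adamts10 and Bmp1 were 0.0732 and 0.244. With limma on log2 FPKM, which changes test, pseudocount and scaling together, the median log2 fold change of all genes was -0.081 and -0.105 (pseudocounts of 1 and 0.1), and the share above 0 went from 50.9% to 38.0% and 37.9%.

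Some named genes whose edgeR log2 fold change was smaller than its SE changed sign, and the cause was not tested. They include Mmp3 and Lox, at -0.80 and -0.29 in the reported test, and Adam22, at -0.40. Under voom, Adam10 was at 0.040, Adamts1 at -0.19, Cpxm2 at -0.24 and Timp3 at 0.024. On log2(FPKM + 1), Adamts1, Plod1 and P4ha2 were at -0.21, -0.025 and -0.037, and on log2(FPKM + 0.1) at -0.23, -0.026 and -0.038. With the covariate for code number, Adam10, Adam22, Plod1, Lox and Mmp3 were at 0.035, 0.071, -0.11, 0.93 and 0.58. With the replicate block, Adam11 and Cpxm2 were at 0.21 and -0.033, and with length trends removed P4ha2 was at -0.033. With GC trends removed and G3 PGC1aOE 2 left out, Adam10, Plod1, Plod3, Lox, P4ha2 and Timp3 were at 0.076, -0.15, -0.040, 0.12, -0.057 and 0.069. With each library left out in turn, Adam10 ran from -0.20 to 0.16, Adam11 from -0.32 to 0.15, Adamts1 from -0.62 to 0.41, Adamtsl4 from -0.32 to 0.035, Plod1 from -0.18 to 0.33, Plod3 from -0.11 to 0.41, Lox from -2.09 to 0.94, Cpxm2 from -0.84 to 0.96, P4ha2 from -0.070 to 0.16 and Timp3 from -0.51 to 0.095. Depth limits the least abundant genes, since Mmp8 and Adamts4 had 5 reads or fewer in 3 libraries each.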
